A study of Mus musculus with 3 samples.

Results

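The genes described here are 10 transcripts that are read as signs of T cell receptor signalling during selection in the thymus: the nuclear receptor genes Nr4a1, Nr4a2 and Nr4a3, the zinc finger genes Egr1, Egr2 and Egr3, the corepressor genes Nab1 and Nab2, and the surface protein genes Cd5 and Cd69. They were chosen by name from the 19938 genes named on the array, and each of the 10 had 1 probe set that the platform annotation gives to that gene alone. Thymocytes, the developing T cells, came from 3 wild-type mice, numbered 92, 103 and 106, of mixed FVB and C57BL6 background, and their RNA was read with Affymetrix MoGene 1.0 ST arrays. The mice are the normal group of a study of lymphoma in mice; the tumours were not analysed here, so these data hold no comparison between genotypes. No treatment is named for the mice, and neither age nor sex is labelled. Each sample is labelled with 0.3 µg of RNA and a RIN, a score of RNA integrity, of 3. The labels also enter T cell lymphoma under disease state although title and genotype read wild type.

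Developing T cells test their receptor against self peptides in the thymus. A weak signal rescues them (positive selection), a strong one kills them (negative selection), and cells without a signal die. The receptor acts through calcium and the ERK cascade, which switch on the EGR and NR4A genes within a short time, and NAB proteins then hold EGR activity in check. CD69 appears on the surface of cells that have just been signalled, and the amount of CD5 is set by how strongly a cell recognises self.

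Promoter sequences are shown for the genes in which motifs of signal-driven factors recur. RefSeq promoters of assembly GRCm38.p6, each running from 250 bases before to 50 bases after a transcript start, were at hand for 7 of the 10 genes (Nr4a1, Nr4a2, Nr4a3, Egr2, Nab1, Nab2 and Cd5), with 11 promoters in all, 5 of them of Egr2. The half-site of the cyclic AMP response element, TGACG or its complement CGTCA, is bound by CREB family factors. It occurred 4 times in the promoter of each NR4A gene, 2 times in each of 3 overlapping Egr2 promoters and 1 time in that of Nab1. Of all 32851 promoters in the table, 20.8% held at least 1 such half-site and 0.231% held 4 or more. The NR4A stretches below are the 250 bases before the start, written along the gene, with the half-sites in capitals. They lie at chr15:101266596-101266845 on the plus strand (Nr4a1), chr2:57124004-57124253 on the minus strand (Nr4a2) and chr4:48045055-48045304 on the plus strand (Nr4a3).
Nr4a1: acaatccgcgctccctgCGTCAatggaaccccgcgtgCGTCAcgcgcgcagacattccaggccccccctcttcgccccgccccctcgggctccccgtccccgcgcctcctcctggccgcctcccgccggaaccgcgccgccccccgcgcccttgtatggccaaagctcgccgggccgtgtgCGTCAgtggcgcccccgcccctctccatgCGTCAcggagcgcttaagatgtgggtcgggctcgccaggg
Nr4a2: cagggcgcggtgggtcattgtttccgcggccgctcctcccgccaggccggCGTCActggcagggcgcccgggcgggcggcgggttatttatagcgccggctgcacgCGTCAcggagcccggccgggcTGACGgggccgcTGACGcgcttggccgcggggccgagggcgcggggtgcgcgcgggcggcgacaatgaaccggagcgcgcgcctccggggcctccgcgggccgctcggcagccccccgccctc
Nr4a3: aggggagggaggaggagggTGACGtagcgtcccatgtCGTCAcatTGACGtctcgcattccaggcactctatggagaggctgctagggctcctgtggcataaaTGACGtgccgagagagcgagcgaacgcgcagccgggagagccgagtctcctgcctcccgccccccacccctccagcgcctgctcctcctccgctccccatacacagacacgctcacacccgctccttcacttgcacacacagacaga
Counting back from the start, with the base before it as -1, the half-sites began at -233, -213, -69 and -40 in Nr4a1, at -200, -144, -123 and -111 in Nr4a2 and at -231, -213, -205 and -147 in Nr4a3. Nr4a1 and Nr4a3 share the position -213, and the other positions differ between the 3 genes, although the number is equal.

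The other sequences shown carry the sites of serum response factor and of the EGR proteins. The CArG box, the site of serum response factor through which ERK signals reach many immediate early genes, was in 4 of the 5 Egr2 promoters, and in 1.63% of all promoters. Several Egr2 promoters overlap, so these 4 hold only the 2 boxes printed here, in capitals within 30 bases of the plus strand, at chr10:67537484-67537513 (first) and chr10:67537787-67537816 (second).
Egr2, first box: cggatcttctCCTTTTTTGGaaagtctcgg
Egr2, second box: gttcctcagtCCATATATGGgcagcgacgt
The EGR site, GCGNGGGCG on either strand, occurred 3 times in the Nab1 promoter, beginning at -141, -109 and -38. At least 1 such site was in 5.55% of all promoters and 3 or more in 0.195%. The 250 bases before the Nab1 start, at chr1:52500449-52500698 on the minus strand, are given with the EGR sites in capitals.
Nab1: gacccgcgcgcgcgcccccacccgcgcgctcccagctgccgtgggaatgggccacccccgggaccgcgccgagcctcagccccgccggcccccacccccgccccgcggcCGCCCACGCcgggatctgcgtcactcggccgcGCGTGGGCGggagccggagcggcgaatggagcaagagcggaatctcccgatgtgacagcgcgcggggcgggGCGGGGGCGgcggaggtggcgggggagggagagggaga
An EGR site was also found at -60 in Nr4a1 and at -74 in Nr4a2. The complete response element TGACGTCA, the NR4A monomer site AAAGGTCA and the AP-1 site TGANTCA matched none of the 11 promoters. Their shares among all promoters were 1.79%, 1.51% and 7.81%. The MEF2 site was searched only in a strict form: CTA, then 4 letters that are A or T, then TAG. That form matched none of the 11 promoters, against 0.557% of all promoters, and looser forms of the site were not searched. The promoters of Nab2 and Cd5 held none of the motifs searched. These are matches of letters in a short window, and no binding was measured.

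Of the 10 genes, 9 were above background on all 3 arrays, where 61.8% of the named genes were (12315 of 19938). Background here is the 95th percentile of 1203 genes for odorant, pheromone and trace amine receptors of the nose. It stood between 5.91 (mouse 92) and 6.10 (mouse 103) on the log2 scale. All values are log2 levels as deposited, so a difference of 1 is a doubling. Probes differ in how well they bind, and for this reason the level of a gene is compared between mice and with background, not with the level of another gene.

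**Figure D1:**
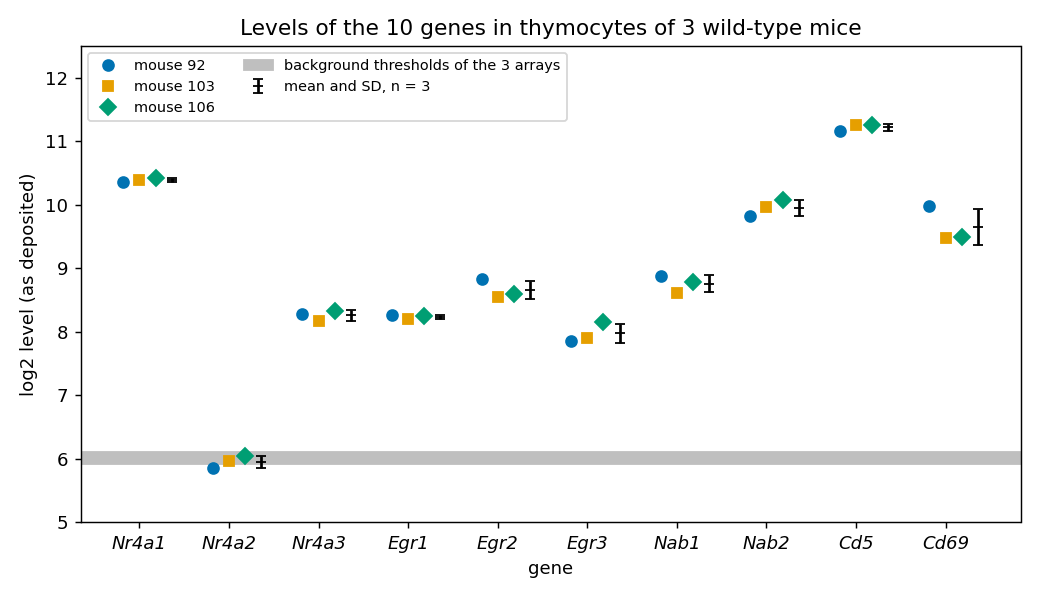
Log2 level of each of the 10 genes (x axis) in mice 92, 103 and 106 (points), with the mean and SD over the 3 mice beside them and the background thresholds of the 3 arrays as a grey band from 5.91 to 6.10. Nr4a2 lies in or at the edge of the band, the other 9 genes lie above it in each mouse, and heights of different genes are not comparable because their probes differ.

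Among the NR4A receptors, Nr4a1 and Nr4a3 were read well above background and Nr4a2 was not. Nr4a1 encodes NUR77, an orphan nuclear receptor induced by receptor signals and linked to the death of strongly signalled thymocytes. Its levels were 10.36, 10.38 and 10.42 in mice 92, 103 and 106, a mean of 10.39 ± 0.03 (SD, n = 3). The 3 mice lay within a range of 0.06 of each other, 4.28 to 4.45 above their own thresholds. Nr4a3, which acts alongside Nr4a1 in thymocyte death, had levels of 8.28, 8.16 and 8.33 (8.26 ± 0.09, SD, n = 3). Nr4a2, encoding NURR1 and best known from dopamine neurons, was at 5.85, 5.96 and 6.04 (5.95 ± 0.10, SD, n = 3). It passed the threshold on the array of mouse 106 alone, by 0.04, and was under it in mice 92 and 103 (differences from the threshold of -0.06 and -0.14). With a lower threshold, the 90th percentile of those receptors, all 10 genes passed in each mouse, so the call for Nr4a2 rests on the percentile chosen.

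The EGR factors were all above background in each mouse. Egr1, the founding member of the family and a target of ERK in positive selection, had levels of 8.27, 8.20 and 8.24 in mice 92, 103 and 106 (8.24 ± 0.03, SD, n = 3). The range over the mice was 0.07 as deposited and 0.22 with the arrays centred on their medians. Egr2, needed for the survival of selected thymocytes and for natural killer T cells, was at 8.82, 8.55 and 8.60 (8.66 ± 0.14, SD, n = 3), with mouse 92 highest. Egr3, which acts with the other EGR factors in thymocyte growth and selection, was at 7.86, 7.91 and 8.15 (7.97 ± 0.16, SD, n = 3), with mouse 106 highest. Egr4, the family's remaining member and not among the 10 genes, was at 6.88, 6.72 and 6.81 (6.80 ± 0.08, SD, n = 3), above the threshold in each mouse.

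The NAB corepressors bind EGR1, EGR2 and EGR3 and turn them into repressors. Nab1, whose promoter with 3 EGR sites is printed above, had levels of 8.88, 8.61 and 8.78 in mice 92, 103 and 106 (8.75 ± 0.14, SD, n = 3). Nab2 was at 9.82, 9.96 and 10.07 (9.95 ± 0.13, SD, n = 3). Nab1 was highest in mouse 92 and Nab2 in mouse 106, with ranges of 0.27 and 0.26, and the same mice were highest under centring, quantile and cyclic loess scaling.

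The surface protein genes gave both a narrow and the widest spread of the 10. Cd5, an inhibitory receptor that tunes the T cell receptor signal, had levels of 11.15, 11.25 and 11.26 in mice 92, 103 and 106 (11.22 ± 0.06, SD, n = 3), 5.15 to 5.26 above the thresholds. Cd69, a C-type lectin that holds signalled cells in the tissue by drawing the sphingosine phosphate receptor S1PR1 off the surface, was at 9.98, 9.48 and 9.50 (9.65 ± 0.29, SD, n = 3). Mouse 92 stood apart from the other two in Cd69: it read 1.42-fold higher than mouse 103 and 1.40-fold higher than mouse 106, which differed from each other by 0.02. Without mouse 92, the SD of Cd69 was 0.01.

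**Figure D2:**
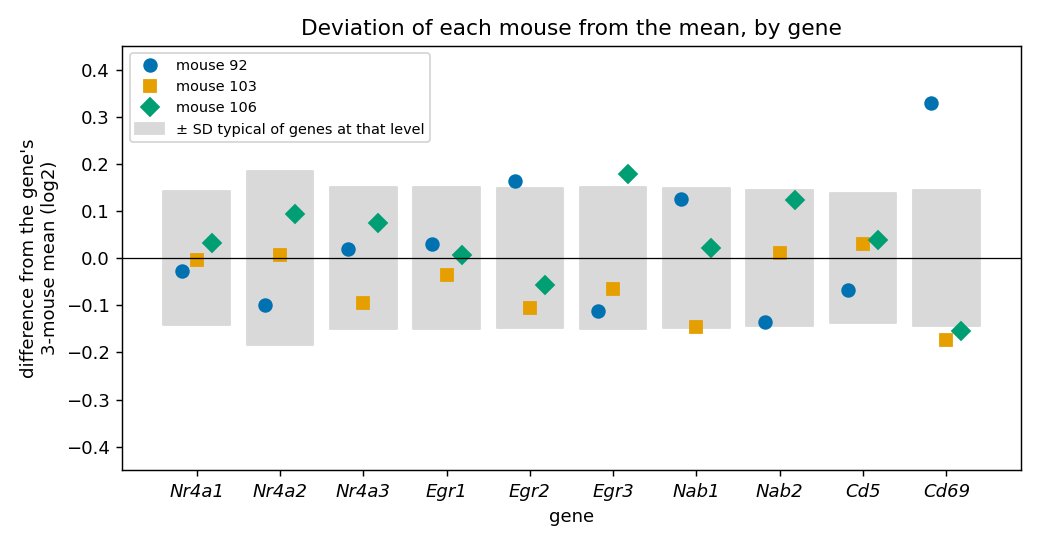
Difference of each mouse (points) from a gene's mean over the 3 mice, in log2 units, for the 10 genes on the x axis; grey boxes span plus and minus the SD that is typical of genes at the same level. The points of Nr4a1 and Egr1 crowd around 0, and mouse 92 lies above the box for Cd69 while mice 103 and 106 lie just under it.

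Whether the spread of a gene over the 3 mice exceeded that of genes at a similar level was tested with limma, over the 13316 genes above background on at least 1 array. The test sets a gene's variance against the variance typical of its level. It called 30 of the 13316 genes (0.225%) at an adjusted p under 0.05 and 0 of the 10 genes described here. Among the 30 were the sex-linked genes Xist, Eif2s3y, Uty and Kdm5d, 5 neutrophil markers, the B cell marker Cr2 and the erythroid marker Alas2, which are described below. At an unadjusted p under 0.05 limma had 646 genes, 4.85% of those tested, and again 0 of the 10. Cd69 came closest, with an SD of 0.29 against a typical 0.15 (limma, unadjusted p = 0.0558, adjusted p = 0.996). The spread of Nr4a1 was 0.03 against a typical 0.14 and that of Egr1 0.03 against 0.15 (limma, adjusted p = 0.998 for both). The narrow spread depends on the scaling: the SD of Nr4a1 was 0.08 to 0.09 under centring, quantile and cyclic loess scaling, that of Egr1 was 0.11 under centring, and that of Cd5 was 0.11 and 0.12 under quantile and cyclic loess scaling. For 8 of the 10 genes the SD was below the typical value, and Egr3, at 0.16 against 0.15, was just above it. The share of all genes tested that lay below their typical value was not counted, so the 8 are not read as a narrow spread. The median SD of the 10 genes was 0.11, and that of all genes tested 0.13. The typical values of the 10 genes, 0.14 (Cd5) to 0.18 (Nr4a2), all lay above that 0.13.

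These p-values do not show that the mice were alike. At the level of each gene, a call over all genes would have needed an SD of 0.68 (Cd5) to 0.91 (Nr4a2), which 1 mouse reaches when it lies 1.18 to 1.58 away from 2 equal others. The labels number the mice but say nothing more of how samples were taken, so that the p-values measure only the spread between these 3 samples.

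**Figure D3:**
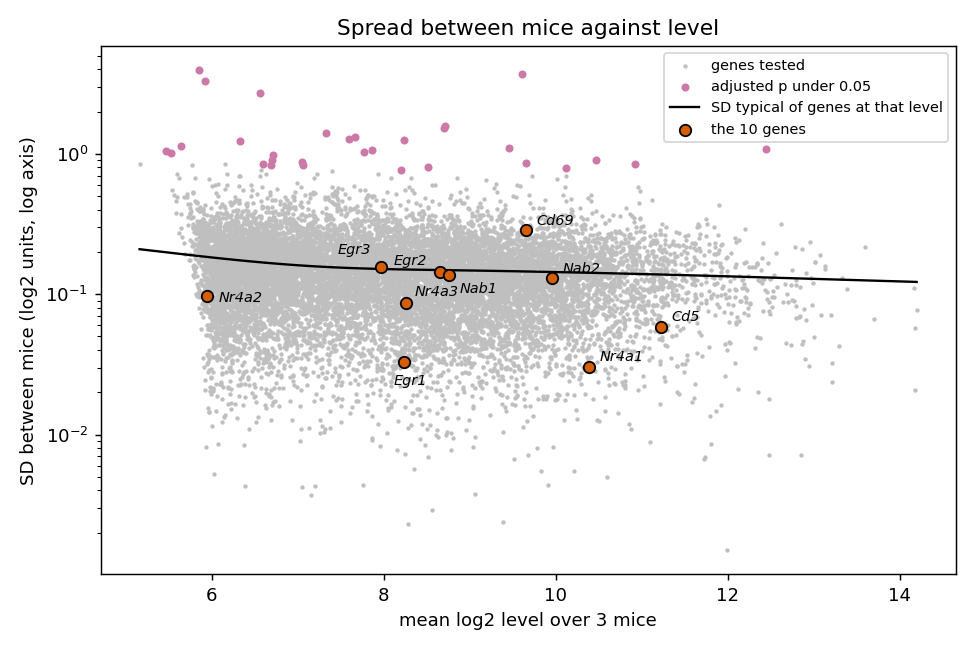
SD between the 3 mice (log axis, log2 units) against the mean log2 level for the 13316 genes tested (grey), the 30 genes with an adjusted p under 0.05 (pink), the SD typical of each level (line) and the 10 genes (orange). Cd69 lies above the line but far below the pink genes, of which the lowest has an SD of 0.76, and Nr4a1 and Egr1 lie far under the line.

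Between pairs of mice, 1 difference among the 10 genes reached 0.5 on the log2 scale, that of Cd69 between mice 92 and 103, at 0.50. Of all genes tested, 6.09% differed by that much in either direction in this pair, 2.73% with mouse 92 higher. No gene of the 10 did so between mice 92 and 106, where 4.72% of genes did and Cd69 was just inside at 0.48, or between mice 106 and 103, where 2.97% did.

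The order of the mice over the 10 genes was uneven, with mouse 106 highest for 6 genes and lowest for 0, where 23.6% of all genes tested were highest and 36.6% lowest in that mouse. The 6 genes were Nr4a1, Nr4a2, Nr4a3, Egr3, Nab2 and Cd5. In them mouse 106 led the next mouse by 0.01 (Cd5) to 0.24 (Egr3). The SD typical of their levels was 0.14 (Cd5) to 0.18 (Nr4a2), and the order was not tested. Mouse 92 was highest for the other 4 (Egr1, Egr2, Nab1 and Cd69), and mouse 103 for 0, against 37.4% and 39.1% of all genes tested. Mice 92 and 103 were lowest for 5 genes each, where 35.1% and 28.3% of all genes tested were lowest. The order was not particular to the 10 genes. Of the lists described below, mouse 106 was highest for 8 and lowest for 1 of 16 factors acting on NR4A and EGR transcription. For binding partners it was highest for 7 and lowest for 2 of 12. Immediate early genes (5 highest and 7 lowest of 20) and thymocyte markers (0 highest and 5 lowest of 10) went the other way. Of 90 differences between pairs of mice recomputed under 3 other scalings, 11 had another sign. The median of all named genes was 0.15 lower in mouse 92 than in mouse 103 (difference -0.15), and centring the arrays on it raises every gene of mouse 92 against mouse 103 by that amount. After centring, Nr4a1, Nr4a2, Egr3, Nab2 and Cd5 were higher in mouse 92 than in mouse 103, with the sign turned, and all 10 genes were lowest in mouse 103. The share of all genes lowest in that mouse after centring was not counted. Of the lists described below, 14 of 16 factors acting on NR4A and EGR transcription and 14 of 19 feedback regulators were lowest there too. For immediate early genes it was 9 of 20, and for neutrophil markers 0 of 10. Mouse 106 was also highest for 6 genes and lowest for 0 under centring, under quantile and under cyclic loess normalisation, but under the last pair Egr1 took the place of Cd5 among the 6. The shares over all genes were not counted under these scalings. Under quantile normalisation mouse 106 was also highest for 10 of the 16 factors and 10 of the 19 feedback regulators, but for 2 of 10 thymocyte and 1 of 10 neutrophil markers. Mouse 92 was highest for Cd69 under each of the 3 scalings, by 0.39 to 0.65 over mouse 103 and by 0.39 to 0.54 over mouse 106.

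Marker lists of blood and immune cells other than thymocytes had their lowest mean in mouse 92. All 10 measured neutrophil markers were lowest in that mouse, where 35.1% of all genes tested were. Of the 10, 6 were above background on all arrays. The mean of the list lay 1.10 below its 3-mouse average in mouse 92 (deviation -1.10). In mice 103 and 106 it lay 0.72 and 0.38 above that average. Of these markers, 5 varied between mice in limma (S100a8, S100a9, Ngp, Lcn2 and Ltf, adjusted p under 0.05). All 9 measured B cell markers were lowest in mouse 92 too (deviations of -0.62, 0.47 and 0.16 in mice 92, 103 and 106), with Cr2 varying. Of the 9, 6 were above background on all arrays. The macrophage and dendritic cell list deviated by -0.26, 0.29 and -0.03, and the erythroid list by -0.51, 0.39 and 0.11, with Alas2 varying. The list of natural killer, gamma-delta and cytotoxic cells deviated by -0.27, 0.26 and 0.02. Above background on all arrays were 10 of 11, 4 of 5 and 7 of 10 measured markers of these 3 lists. Thymic epithelial markers deviated by -0.09, 0.14 and -0.05, and fibroblast and endothelial markers by -0.05, 0.12 and -0.08, the first of which was 0.02 with the arrays centred on their medians. The thymocyte list, with 10 of 10 measured markers above background, deviated by 0.09, -0.06 and -0.03, but in mouse 92 by 0.03 under quantile and 0.01 under cyclic loess normalisation. Of its 10 genes, 8 were highest in mouse 92 as deposited, 3 under quantile and 2 under cyclic loess normalisation, where 5 were lowest in that mouse. Xist, the RNA of the inactive X chromosome, was at 5.30, 11.85 and 11.67 in mice 92, 103 and 106. The Y-linked genes Eif2s3y (10.42, 3.59 and 3.55), Uty (9.74, 3.91 and 4.13) and Kdm5d (9.69, 5.19 and 4.80) were above background in mouse 92 alone. With 1 such mouse, its sex-linked transcripts and its Cd69 level cannot be told apart. The part of these differences in the Cd69 level of mouse 92 was not tested, and in bulk RNA fewer cells of a type and less RNA per cell cannot be told apart. The array identifiers of mice 92 and 106 share 30 of 32 leading digits, and that of mouse 103 shares 9 with either. Cd69 differed by 0.48 between mice 92 and 106 and by 0.02 between mice 106 and 103, and the part of the array was not tested.

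**Figure D4:**
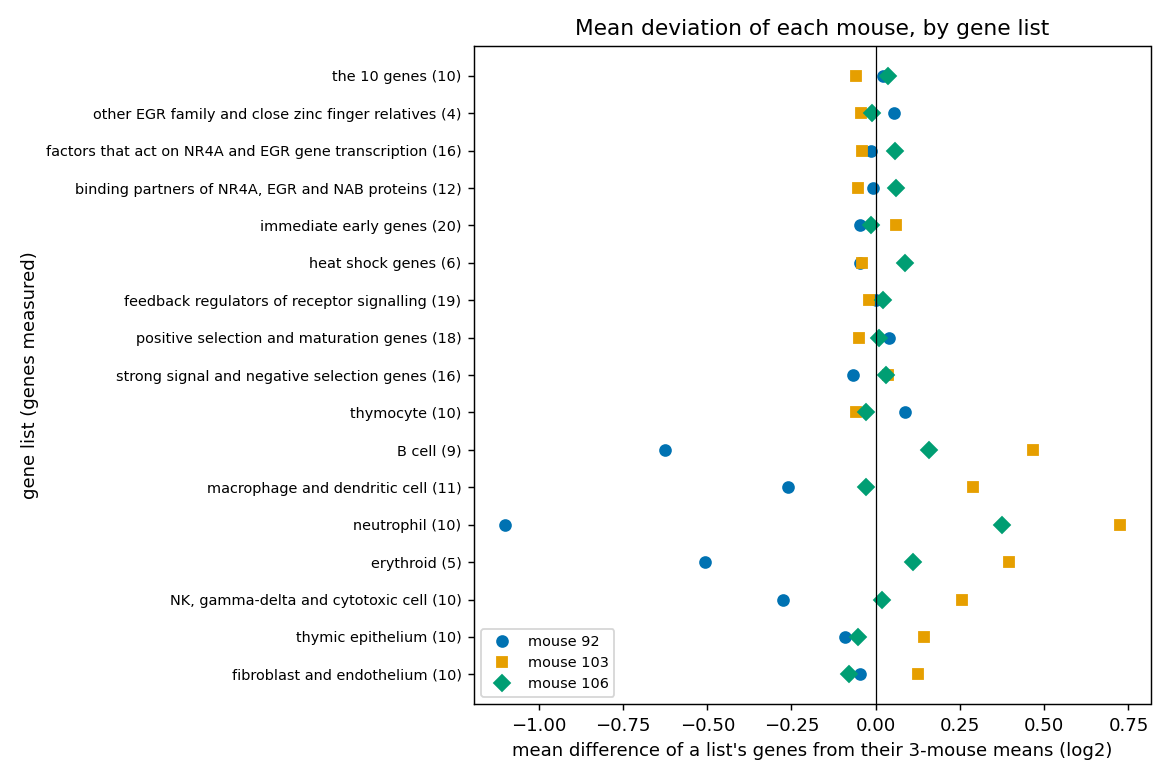
Mean difference of the genes of each list (y axis, with the number of genes measured) from their own 3-mouse means, in log2 units, for mice 92, 103 and 106 (points). The 10 genes and the signalling lists stay within 0.1 of 0, while neutrophil markers reach -1.10 and B cell markers -0.62 in mouse 92.

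Defining markers of thymocytes were far above background: Cd4, a coreceptor, was at 12.15, 12.03 and 12.11 in mice 92, 103 and 106, Cd8a at 13.24, 13.18 and 13.22, and Rag1 at 13.81, 13.38 and 13.58. Rag2, the partner of the RAG1 recombinase, had the widest range of the list, at 10.24, 9.41 and 9.91, with mouse 92 highest as for Cd69 (limma, adjusted p = 0.549).

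Factors that act on the transcription of NR4A and EGR genes were above background in 16 of 16 measured cases and varied in 0 of 16 by limma. Their median SD was 0.13, equal to that of all genes tested. Mef2c, of the MEF2 family that links calcium to Nr4a1, had the widest range (limma, unadjusted p = 0.0154, adjusted p = 0.741). It was at 6.22, 6.99 and 6.90 in mice 92, 103 and 106, only 0.31, 0.89 and 0.90 above their thresholds. Elk4, a partner of serum response factor, was at 10.47, 10.10 and 10.32, and Nfatc2, a calcium-driven factor, at 7.92, 8.01 and 8.27. Binding partners of the NR4A, EGR and NAB proteins were above background in 11 of 12 measured cases, with Rxrg, a retinoid receptor, under it in each mouse at 4.93 to 5.01, and 0 of 11 tested varied. Gatad2a, a subunit of the NuRD repressor complex that NAB2 recruits through CHD4, was at 9.67, 9.54 and 9.94.

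Other immediate early genes, which are switched on by many stimuli, cell handling included, were above background in 18 of 20 cases, and 0 of the 18 tested varied. Atf3 and Ier3 were under the threshold in each mouse. Jun, a subunit of AP-1, had the widest range of this list, at 6.88, 7.33 and 6.35 in mice 92, 103 and 106 (limma, unadjusted p = 0.00530, adjusted p = 0.456). It was lowest in mouse 106 and highest in mouse 103. Zfp36, whose protein destabilises cytokine transcripts, was at 9.68, 9.19 and 9.49. Of the heat shock genes, 6 of 6 measured were above background and 0 of 6 varied, with Hsph1 at 10.63, 10.78 and 11.09.

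Feedback regulators of receptor signalling, the class to which Cd5 belongs by function, were above background in 19 of 19 cases with 0 of 19 varying and a median SD of 0.10. Spred2, an inhibitor of the RAS-ERK cascade, was at 9.51, 9.04 and 9.32 in mice 92, 103 and 106. Ptpn6, which encodes the phosphatase SHP-1, was at 11.04, 11.49 and 11.29.

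Genes of positive selection and maturation were above background in 18 of 18 measured cases. By limma 0 of 18 varied after adjustment, and 5 of 18 had an unadjusted p under 0.05, where 4.85% of all genes tested did. The median SD of this list was 0.15. Id3, an EGR target that restrains E proteins, was at 8.18, 8.77 and 8.83 in mice 92, 103 and 106 (limma, adjusted p = 0.770). It was lowest in mouse 92, where, as deposited, Egr1 and Egr2 were highest and Egr3 was lowest. S1pr1, the exit receptor that CD69 opposes, was at 9.56, 8.94 and 9.66 (limma, adjusted p = 0.673), lowest in mouse 103. The costimulatory receptor gene Cd28 was at 11.35, 10.67 and 10.90 (limma, adjusted p = 0.755), highest in mouse 92.

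Genes of strong signals and negative selection were above background in 16 of 16 measured cases, and 0 of 16 varied by limma, with 1 at an unadjusted p under 0.05. Il2ra, a chain of the interleukin-2 receptor, was at 7.77, 8.49 and 8.79 in mice 92, 103 and 106 (limma, adjusted p = 0.291), a range of 1.03 with mouse 92 lowest. Bcl2l11, which encodes the death protein BIM and takes part in negative selection, was at 9.88, 9.41 and 9.61.

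The genes whose deviations from the mean over the 3 mice were nearest to those of Cd69 were Togaram1, Ccnc and Nop10, at Euclidean distances of 0.01 on the log2 scale, among 12314 other genes above background on all arrays. Within a distance of 0.1 there were 232 genes. A pattern over 3 mice is thus shared by many genes.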

How the data were processed

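The deposited table holds log2 levels of 35557 probe sets on 3 arrays; the log2 scale was inferred from the values. Per the submitters' processing notes, Affymetrix Expression Console made the values. How background, summarisation and scaling were set, in which version and with which arrays is not given in the sources used. Levels were named from the platform annotation: 21789 probe sets had 1 symbol, 1621 several and 12147 none listed. Probe sets of a gene were averaged.

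Spread over the mice was tested in R 4.3.3 with limma 3.58.1 (intercept, eBayes with a trend and a prior that is not robust, variance over prior as an upper-tail F ratio with 2 and 10.4 degrees of freedom, Benjamini-Hochberg adjustment), and checked on simulated data. In the simulated data, limma called 0 of 100 genes shifted by 1 on the log2 scale in 1 mouse, and 77 of 100 shifted by 2. Motifs were searched on both strands. Other normalisations, priors, filters, background thresholds and leaving out each mouse were tried. The genes, lists, motifs and tests were chosen with earlier results of these data known. Genes outside the 10 were named by rule: those of each list with the widest range, and some of those under background, with thymocyte markers. A planned comparison of protein sequences was not made. With 3 arrays, their number limits the precision.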

Additional observations from a re-analysis of the deposited data

How the results depend on the processing

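None of the 10 genes passed limma's threshold under any of the 11 alternatives to the main setting (0 in each), and 9 of 10 stayed above background under each alternative except the 90th percentile threshold, where all 10 did. Without mouse 106 only 9 of the 10 were tested, since Nr4a2 was under background in mice 92 and 103. Cd69 had an unadjusted p under 0.05 in 3 of the 11 limma alternatives: 0.0263 without mouse 106, 0.0469 with a robust prior that used the bulk's degrees of freedom for every gene, and 0.0499 with a robust prior and per-gene degrees of freedom. Its adjusted p over the alternatives ran from 0.765 to 0.999. The number of all genes called, 30, was 18 after centring on the median, 13 after quantile and 16 after cyclic loess normalisation, 51 to 84 with 1 mouse left out (58 without mouse 92, 51 without mouse 103, 84 without mouse 106) and 0 with a robust prior and its per-gene degrees of freedom, where 600 genes had an unadjusted p under 0.05. The 1 difference of 0.5 or more between mice 92 and 103 became 0 after quantile and cyclic loess normalisation and at a threshold of 1, and between mice 92 and 106 the count rose to 1 after centring. Of 90 differences recomputed under other scalings, 11 had another sign. The causes were not tested. No paired analysis was possible because the labels give 1 group. The number of arrays limits every value, and any part of RNA integrity was not tested, since the label is the same for each sample.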

Other observations

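Genes next to the 10 in the RefSeq gene order of GRCm38.p6 had the following log2 levels. Atg101, after Nr4a1, was at 9.11, 8.76 and 8.74 in mice 92, 103 and 106, and Grasp, before it, at 6.54, 6.69 and 6.62. Etf1, after Egr1, was at 9.84, 9.52 and 9.77, Ado, after Egr2, at 8.72, 8.75 and 8.73, and Bin3, after Egr3, at 9.45, 9.54 and 9.41. Clec2m, a lectin gene after Cd69, was under background in each mouse at 5.35, 5.62 and 5.61. A gene model after Nr4a2 overlaps it by 670 bases and was not analysed here.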
